A study of Mus musculus with 20 samples.

Results

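Tslp, Crlf2 and Il7r encode the cytokine thymic stromal lymphopoietin and the chains of its receptor, and they are described here in 20 mouse skin tissues, 8 of normal skin (NS), 8 of actinic keratosis (AK) and 4 of cutaneous squamous cell carcinoma (cSCC). The members were taken by gene symbol, 3 of the 22090 genes in the table of raw counts. Tslp was chosen by its measured levels, which in AK lay apart from those in NS, so its AK vs. NS values are given as a description without a test.

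TSLP is released by keratinocytes and other barrier epithelial cells. It binds the chain encoded by Crlf2, and this complex recruits the IL-7 receptor chain encoded by Il7r, after which JAK1 and JAK2 activate STAT proteins, STAT5 above all. Dendritic cells, T cells, group 2 innate lymphoid cells, mast cells and macrophages can respond, and in skin the cytokine is best known for type 2 inflammation and atopic dermatitis. Il7r has a second use, since with the common gamma chain encoded by Il2rg it forms the receptor for IL-7 on lymphocytes.

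All tissues were skin of female SKH-1 mice, a hairless strain that forms skin tumors under ultraviolet light. The labels give an age of 7 months. In the paper this was the age before irradiation. All mice were killed after the many weeks of irradiation, so they were older when the tissues were taken. Of the mice, 4 were kept without irradiation and gave 1 NS each, and 4 were irradiated with simulated sunlight and each gave NS, a pair of AK and 1 cSCC, so the 8 AK stand for 4 mice. The labels give neither the mouse of a tissue, nor which NS were irradiated, nor the grade of an AK. NS and AK were therefore each treated as 1 group, and the tissues were treated as independent. The p-values may be too small where tissues of the same group share a mouse. They may be too large where the groups compared share mice. The mice carried no transgene, and the tissues were whole pieces, in which fewer cells of a type and less RNA per cell cannot be told apart.

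The libraries held 1624325 to 6295575 counts for NS, 867219 to 14055206 for AK and 775750 to 7095102 for cSCC. Levels are CPM, a gene's share of the counts of its library on a common scale, adjusted with edgeR's TMM factors. The keratin genes that define keratinocytes were present in every group, with Krt14 at 2917 CPM or more in each sample. Among the cSCC, 2 libraries stood apart: replicate 20 held lung markers at a summed 35527 CPM and replicate 21 held heart muscle markers at a summed 54737 CPM, against at most 51.7 CPM and 149 CPM in any other sample, and their keratinocyte markers were the lowest of the series (5989 and 4999 CPM against 7965 CPM or more elsewhere). Results of the 3 genes, the marker lists and the pathway genes in cSCC are therefore given also without these libraries.

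In the GENCODE M21 annotation of GRCm38, Crlf2 lies on the minus strand at chr5:109554709-109558993 and Il7r on the minus strand at chr15:9505788-9530176, with no overlapping gene. The upstream sequences of both receptor genes are shown because the receptor signals through STAT proteins, whose palindromic site TTCNNNGAA was searched on both strands together with TGANTCA, the AP-1 site, and the interferon-stimulated response element. Each window is the 250 bases before the RefSeq start in GRCm38.p6, minus strand, 5′ to 3′. The Crlf2 window is chr5:109558994-109559243, the Il7r window is chr15:9529877-9530126, and capitals mark a motif match:
Crlf2: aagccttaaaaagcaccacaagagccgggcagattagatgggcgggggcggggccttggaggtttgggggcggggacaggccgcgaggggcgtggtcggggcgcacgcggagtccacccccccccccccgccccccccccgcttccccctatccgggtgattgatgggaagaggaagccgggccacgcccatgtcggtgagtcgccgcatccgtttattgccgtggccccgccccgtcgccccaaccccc
Il7r: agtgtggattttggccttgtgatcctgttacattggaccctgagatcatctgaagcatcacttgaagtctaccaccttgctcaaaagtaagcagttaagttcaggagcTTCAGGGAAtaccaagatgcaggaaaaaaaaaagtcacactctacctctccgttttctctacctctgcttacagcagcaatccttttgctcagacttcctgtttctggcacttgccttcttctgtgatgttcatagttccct
The Il7r window holds 1 match to the STAT letters, TTCAGGGAA, from 142 to 134 bases before the start, and no match to the others. The Crlf2 window holds none of the 3 motifs and is 71.6% G and C, against 44.0% for Il7r. By comparison, 7.02% of the 32851 mouse promoter windows of this length hold the STAT letters, 6.75% the AP-1 letters and 2.98% the interferon-stimulated response element. The Il7r window overlaps an exon of the noncoding transcript Il7r-203, which starts farther upstream. A match is a description of letters and not a binding site.

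By group mean and median the ligand was lowest in NS, and it varied most in cSCC. Tslp was at 5.48 CPM in the lowest NS, 14.8 in the median and 18.3 in the highest, from 18 to 99 counts per sample. In AK it was at 35.8 CPM in the lowest sample, 95.5 in the median and 224 in the highest, from 68 to 659 counts. Every AK was thus above every NS, and AK averaged 105 ± 58.4 CPM (SD, n = 8) against 14.1 ± 3.93 CPM for NS (SD, n = 8), a ratio of 7.44 (2.90 on the log2 scale). These values chose the gene. Of the 11677 genes tested for AK vs. NS, 0.394% lay wholly above NS in AK, and the closest samples on either side of the gap were AK replicate 10 at 35.8 CPM and NS replicate 2 at 18.3 CPM. Without any 1 sample, the log2 ratio stayed between 2.64 and 3.02.

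In cSCC the 4 libraries fell on both sides of NS and AK. Tslp was at 1202 CPM in replicate 18, 100 CPM in replicate 20, 5.27 CPM in replicate 19 and 2.32 CPM in replicate 21, from 1730, 88, 12 and 14 counts. Replicate 18 was above every AK, replicate 20 was within the AK range, and replicates 19 and 21 were below every NS. The TMM factor of replicate 18, 0.509, was the lowest of the series. With library size as the only scaling, Tslp was at 611 CPM in replicate 18, still above every AK. Replicate 19 was then at 6.01 CPM, above NS replicate 8 at 5.42 CPM, and replicate 21 at 1.97 CPM stayed below every NS. The depth does not limit these low values, since 3 counts correspond to 1.32 CPM in replicate 19 and 0.496 CPM in replicate 21. The keratinocyte markers of the highest library and of one of the lowest summed to 20084 CPM in replicate 18 and 19318 CPM in replicate 19. Their TMM factors were 0.509 and 1.14, so the likeness of these sums depends on the scaling. The part of keratinocyte content in the Tslp levels was not tested.

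In the edgeR quasi-likelihood test with Benjamini-Hochberg adjustment over all genes, a gene was called when its adjusted p was under 0.05 and its fold change above 1.5 or below 0.67. For cSCC vs. NS, Tslp was called higher, with a log2 fold change of 4.56 ± 1.02 (SE) and an adjusted p of 0.00837, among 11.7% of genes called higher. The call rested on 1 library. Without cSCC replicate 18 the log2 fold change was 1.30 and the adjusted p 0.232 in the same edgeR test, and with limma's voom and sample weights the values were 1.5 and 0.365. With library size as the only scaling, the edgeR log2 fold change was 3.58. Without the libraries that held lung and heart genes it was 5.43 with an adjusted p of 0.00293. The exact two-sided permutation test of log2(CPM + 1) gave a difference of 1.46 and p = 0.299. For cSCC vs. AK, Tslp gave a log2 fold change of 1.68 ± 0.99 (SE) and an adjusted p of 0.225 in edgeR's test, and the sign turned to -1.60 without cSCC replicate 18, to -1.19 with limma's voom and to -1.22 in the exact permutation test of log2(CPM + 1) (p = 0.374). With library size as the only scaling the value was 0.81. Leaving out the libraries with lung and heart genes, this value was 2.56 with an adjusted p of 0.0648. The Tslp gene lies on the plus strand at chr18:32815383-32819797 and overlaps the lincRNA 4930455D15Rik on the other strand, so reads of the pair could not be told apart if strand was not used in counting. Both comparisons share the NS and AK samples that chose the gene and are not independent of that choice.

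**Figure D1:**
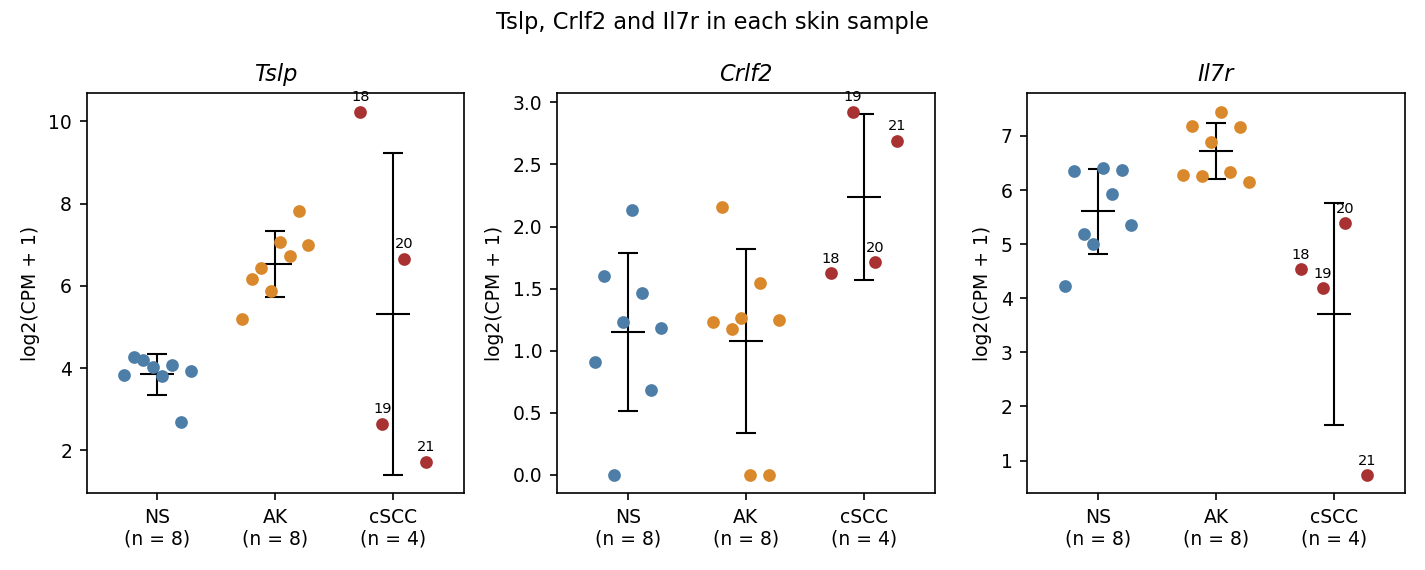
Levels of Tslp, Crlf2 and Il7r as log2(CPM + 1) on the vertical axis, 1 point per sample, for NS (n = 8), AK (n = 8) and cSCC (n = 4, labelled by replicate number). Bars are the mean and SD of the log2 values. For Tslp the AK lie above the NS while the cSCC spread from 2.32 to 1202 CPM, and for Il7r all cSCC lie below all AK.

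The chain that is specific to TSLP was low in all groups, with under 3 counts in 2 NS, 3 AK and 1 cSCC. Crlf2 was at 0 to 3.38 CPM in NS with a median of 1.31, at 0 to 3.47 CPM in AK with a median of 1.36, and at 2.08, 6.59, 2.28 and 5.46 CPM in cSCC replicates 18, 19, 20 and 21. No library held more than 33 counts, 1 NS and 2 AK held 0, and a count of 0 allows up to 1.02 CPM in NS replicate 4, 0.905 CPM in AK replicate 14 and 1.80 CPM in AK replicate 16. Summed over each group and set against the summed totals, Crlf2 was at 1.42 CPM in NS (95% exact Poisson interval 1.03 to 1.91), 1.52 in AK (1.15 to 1.96) and 4.17 in cSCC (3.13 to 5.46), intervals that cover counting error only.

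With all samples of a comparison, Crlf2 fell under the low-count filter, so its values come from the same edgeR fit without the filter. For AK vs. NS the log2 fold change was 0.01 ± 0.63 (SE) with an adjusted p of 0.994, where 1.14% of genes fitted without the filter were called higher, and the exact permutation test gave p = 0.842. For cSCC vs. NS it was 1.60 ± 0.77 (SE) with an adjusted p of 0.169, and for cSCC vs. AK it was 1.49 ± 0.83 (SE) with an adjusted p of 0.22. Without the libraries that held lung and heart genes both were 1.67, with adjusted p-values of 0.303 and 0.35. In these smaller sets Crlf2 passed the filter. The edgeR fit with the filter gave 1.70 for cSCC vs. NS and 1.71 for cSCC vs. AK, with adjusted p-values of 0.234 and 0.265. The exact permutation tests of log2(CPM + 1) gave p = 0.0202 and p = 0.0303 for these comparisons. The 8 permutation tests of the 3 genes are not adjusted. Of genes fitted without the filter, 8.7% and 10.3% were called higher in cSCC vs. NS and cSCC vs. AK. The cSCC overlapped with NS and with AK, with the samples labelled 19 and 21 highest and the samples labelled 18 and 20 inside the ranges of both groups. The libraries with the most Crlf2 were those with the least Tslp, which describes 4 samples only.

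The shared chain followed another pattern, highest in AK and lowest in cSCC. Il7r was at 17.8 CPM in the lowest NS, 49.7 in the median and 83.4 in the highest. In AK it was at 70.2 CPM in the lowest, 99.0 in the median and 174 in the highest, which overlaps with NS. In cSCC it was at 22.2, 17.1, 41.0 and 0.662 CPM in replicates 18, 19, 20 and 21, from 32, 39, 36 and 4 counts. All 4 cSCC were below all 8 AK, and 2 of the 4 were below every NS.

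For cSCC vs. AK, Il7r was lower by a log2 fold change of -2.44 ± 0.66 (SE), with an adjusted p of 0.0171 in edgeR's test. It was one of the 8.34% of genes called lower and of the 6.84% whose cSCC lay wholly below the AK. The log2 fold change was -2.06 without the lowest library, cSCC replicate 21, and -2.43 with an adjusted p of 0.00445 without the libraries that held lung and heart genes. The exact permutation test gave p = 0.00202, the smallest that the 495 splits of 4 and 8 samples allow. For AK vs. NS, Il7r was called higher at the edge of the threshold, with a log2 fold change of 1.03 ± 0.30 (SE), an adjusted p of 0.0485 in edgeR's test and 2.26% of genes called higher. The call was lost without any 1 of 13 of the 16 samples, that is, all but NS replicates 6 and 8 and AK replicate 10, with adjusted p-values of up to 0.095, and over all 16 the log2 fold change stayed between 0.90 and 1.15. The exact permutation test gave p = 0.00559 for AK vs. NS. For cSCC vs. NS the log2 fold change was -1.41 ± 0.70 (SE) with an adjusted p of 0.17 in edgeR's test (-1.42 and 0.113 without the libraries that held lung and heart genes), and the exact permutation test gave p = 0.0242. In the order of Il7r levels, NS and cSCC were thus neighbours that edgeR's test did not separate.

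Il7r is also a gene of T cells, so the T cell markers are given beside it. The 10 markers summed to 71.1 to 234 CPM in NS, 37.2 to 230 CPM in AK and 9.10 to 71.7 CPM in cSCC, and none of the 10 was at 0 in a whole group. Of the 8 that passed the filter, Cd3g was called lower in cSCC vs. AK and 7 were not called, with a median log2 fold change of -1.80 against 0.17 over all genes tested, of which 8.34% were called lower. For cSCC vs. NS, 2 of 8 were called lower, Cd247 and Cd3g, both parts of the T cell receptor complex, against 7.65% of all genes, and for AK vs. NS 1 of 8, Cd247, against 2.38%. In AK vs. NS, where Il7r was called higher, the median log2 fold change of the 8 was 0.05. When the libraries with lung and heart genes were left out, the same markers were called lower in both cSCC comparisons, Cd3g in cSCC vs. AK (-3.48, edgeR adjusted p 0.00815) and Cd247 and Cd3g in cSCC vs. NS (-3.73 and -4.14, adjusted p 0.0269 and 0.00597). AK replicate 16 had the lowest T cell sum of the AK, 37.2 CPM, with Il7r at 143 CPM. The 5 macrophage markers found in the table summed to 1297 to 4651 CPM in NS, 1273 to 7875 CPM in AK and 560 to 6127 CPM in cSCC, and 0 of the 5 were called by edgeR in any comparison, with or without those libraries, against 4.64%, 19.3% and 24.4% of all genes called between AK and NS, between cSCC and NS and between cSCC and AK. AK replicate 14 had the most of these markers and the most Il7r, 174 CPM, while AK replicate 10 had the fewest of the AK with Il7r at 77.1 CPM and cSCC replicate 20 had 6127 CPM with Il7r at 41.0 CPM. The part of either cell type in the Il7r differences was not tested.

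**Figure D2:**
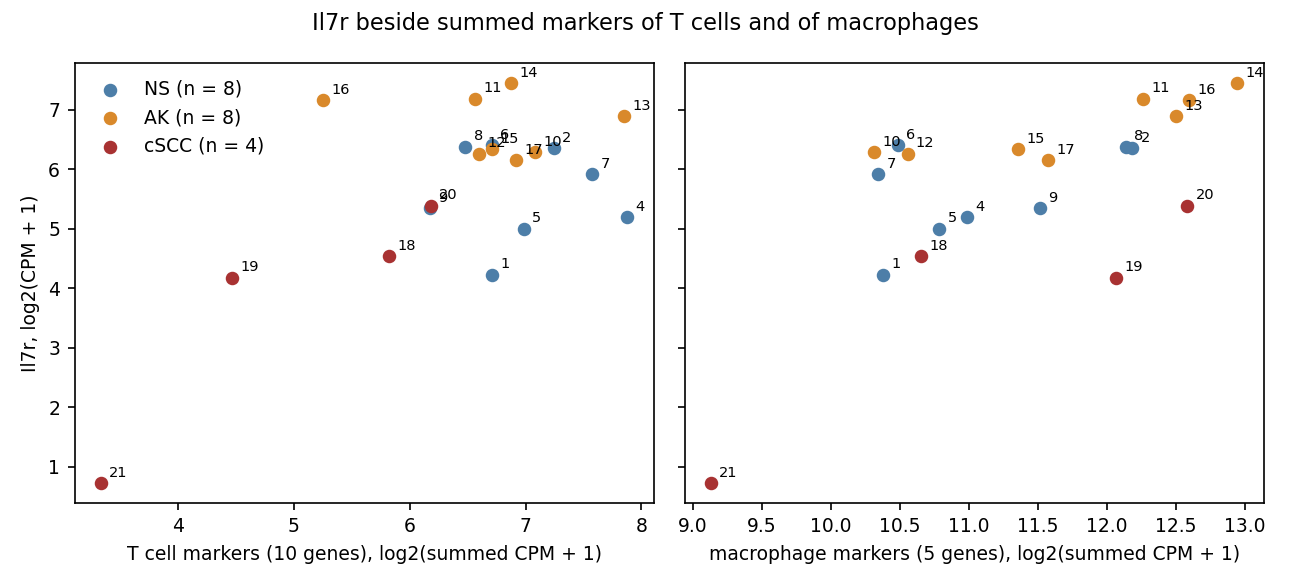
Il7r as log2(CPM + 1) on the vertical axis against the summed CPM of T cell markers (10 genes, left) and of macrophage markers (5 genes, right) as log2(sum + 1), 1 point per sample with its replicate number. The cSCC lie low for Il7r and for T cell markers, whereas cSCC replicates 19 and 20 have macrophage sums of 4287 and 6127 CPM with Il7r at 17.1 and 41.0 CPM.

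The partners of these chains moved otherwise. Il2rg, the common gamma chain, was at 11.8 to 29.2 CPM in NS, 17.7 to 62.2 CPM in AK and 33.6, 36.1, 38.7 and 59.8 CPM in the 4 cSCC, all above every NS, as were 2.7% of genes. With library size as the only scaling, Il2rg overlapped between these groups, at 18.4 CPM in cSCC replicate 18 and 31.0 CPM in NS replicate 4. It was called higher for cSCC vs. NS, with a log2 fold change of 1.15 ± 0.30 (SE) and an adjusted p of 0.0179 in edgeR's test, a call lost without cSCC replicate 19 (0.92, adjusted p 0.0717) and with library size as the only scaling (0.92, adjusted p 0.0933). Leaving out the libraries with lung and heart genes, it was 1.31 with an adjusted p of 0.0343. For AK vs. NS and cSCC vs. AK, Il2rg gave log2 fold changes of 0.53 and 0.66 with adjusted p-values of 0.215 and 0.156, the latter 0.81 and 0.208 without those libraries. Il7, the other ligand that uses Il7r, was low throughout, and averaged 4.19 ± 4.24 CPM over the NS (SD, n = 8), 3.14 ± 2.07 CPM over the AK (SD, n = 8) and 2.49 ± 1.41 CPM over the cSCC (SD, n = 4). It passed in none of the 3 comparisons by edgeR, with adjusted p-values of 0.748 between AK and NS, 0.59 between cSCC and NS and 0.719 between cSCC and AK, and unadjusted p-values above 0.05 in all 3.

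**Figure D3:**
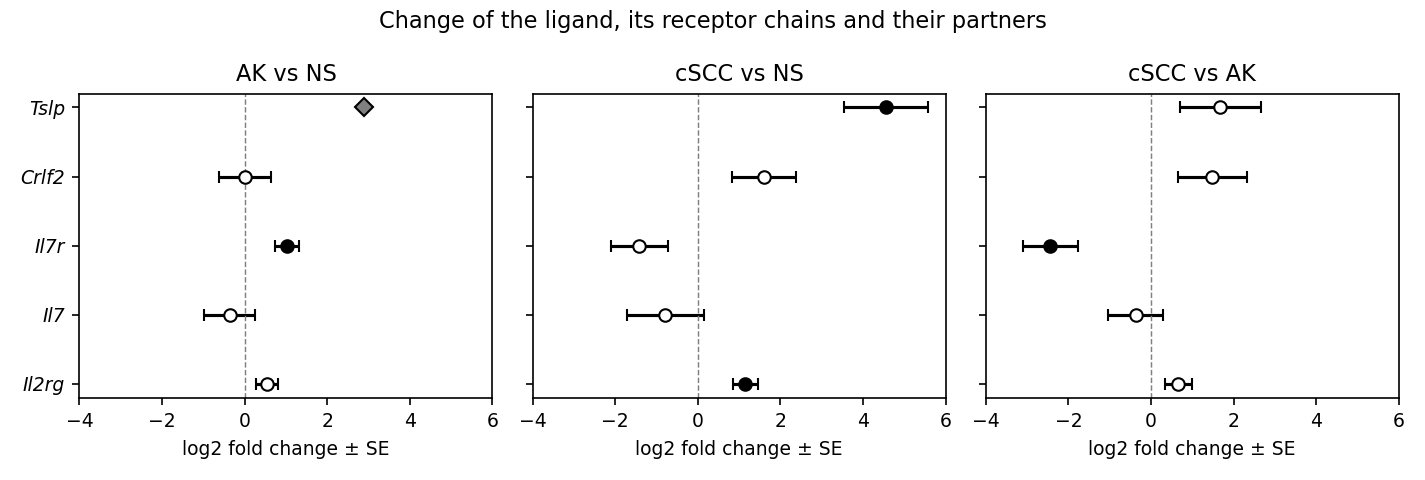
Log2 fold change on the horizontal axis for Tslp, Crlf2, Il7r, Il7 and Il2rg in the 3 comparisons, with bars of 1 SE from edgeR's fit. Filled circles were called (adjusted p under 0.05 and the fold change limits), open circles were not, and the grey diamond is the untested log2 ratio of mean Tslp, 2.90, for AK vs. NS. Il7r is the only one of the 5 called lower, at -2.44 for cSCC vs. AK.

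Between genes, levels are compared per kilobase of exon (1331 bases for Tslp, 1495 for Crlf2 and 4663 for Il7r in the annotation, which may differ from the one used for counting). In NS the levels per kilobase were 10.6 ± 2.95 for Tslp, 11.5 ± 5.61 for Il7r and 0.943 ± 0.684 for Crlf2 (CPM per kilobase, SD, n = 8), so the ligand and the shared chain were alike within their spread and the specific chain was far below both. In AK they were 78.8 ± 43.9, 23.6 ± 8.55 and 0.900 ± 0.736 CPM per kilobase for Tslp, Il7r and Crlf2 (SD, n = 8). In cSCC the medians were 39.6 for Tslp, 4.22 for Il7r and 2.59 for Crlf2 CPM per kilobase (n = 4), and there the Crlf2 range of 1.39 to 4.41 overlapped with the Il7r range of 0.142 to 8.78.

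**Figure D4:**
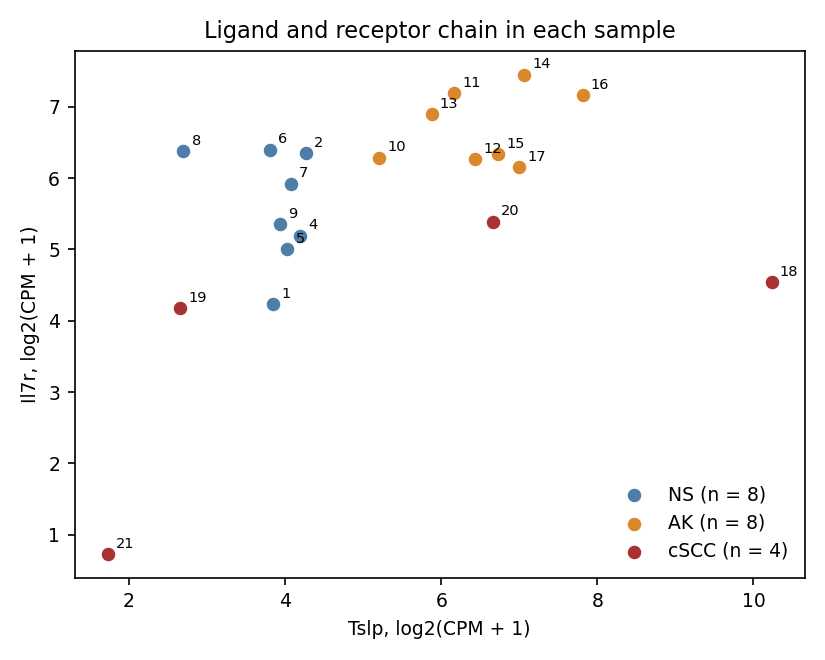
Tslp (horizontal axis) and Il7r (vertical axis) as log2(CPM + 1), 1 point per sample with its replicate number. NS and AK separate along Tslp and overlap along Il7r, and cSCC replicate 18 combines the highest Tslp, 1202 CPM, with Il7r at 22.2 CPM.

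Within NS or AK, no pair of the 3 genes passed the permutation test. Over the 8 AK, Tslp and Crlf2 gave Pearson's r = -0.606 (exact permutation p = 0.109, adjusted over 6 relations 0.594) and Spearman's rho = -0.539 (exact permutation p = 0.176, adjusted 0.729), and r = -0.567 without the 2 samples farthest from the Tslp median. Tslp and Il7r gave r = 0.328 in AK (exact permutation p = 0.426, adjusted 0.623) and r = -0.296 in NS (exact permutation p = 0.519, adjusted 0.623), with rho = 0.238 (exact permutation p = 0.582) and rho = -0.262 (exact permutation p = 0.536), both 0.825 when adjusted. The r for this pair was -0.156 in AK and -0.0609 in NS without the 2 farthest samples. In NS, Tslp and Crlf2 gave r = 0.166 (exact permutation p = 0.63, adjusted 0.63), and r = -0.696 without the 2 farthest samples. Crlf2 and Il7r gave r = -0.421 in AK and 0.451 in NS (exact permutation p = 0.297 and 0.263, both adjusted 0.594). Without the 2 samples farthest from the Crlf2 median, these were 0.739 and 0.25. Crlf2 held 0 counts in AK replicates 14 and 16 and 1 in AK replicate 12. The 4 cSCC are too few for a correlation.

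Across the 20 samples, the genes whose CPM followed each member most closely were ranked by Spearman's rho among 13645 genes with a mean of at least 1 CPM, a description in which group differences, libraries and scaling are shared. For Tslp these were 1700066M21Rik (rho 0.82), Rad21 (0.82), Eed (0.811), Phf11a (0.789) and Nap1l1 (0.783), and within NS and AK alone rho was lower, -0.0476 and 0.548 for Rad21. For Crlf2 they were Bop1 (0.821), Chaf1b (0.816), Mrpl3 (0.806), Msx1 (0.783) and 8430408G22Rik (0.757). Inside NS and AK, rho was 0.786 and 0.755 for Bop1, 0.643 and 0.91 for Chaf1b and 0.762 and 0.755 for Mrpl3. It was 0.5 and 0.834 for Msx1 and 0.333 and 0.683 for 8430408G22Rik. These ranks rest on few counts, since Crlf2 held 0 to 11 counts per NS sample and 0 to 18 per AK sample. For Il7r these were Rgs1 (0.949 over all samples, 0.952 in NS, 0.905 in AK), Atp6v0d2 (0.941, 0.905, 0.881), Gpnmb (0.937, 0.857, 0.952), Lhfpl2 (0.934, 0.833, 0.857) and Mpeg1 (0.932, 0.952, 0.881). None of the 3 members was among the closest genes of another, with rho of 0.427 between Tslp and Il7r, -0.229 between Tslp and Crlf2 and -0.248 between Crlf2 and Il7r.

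The wider pathway was read from 5 lists with 69 genes in all: relatives of the receptor, the other epithelial alarmins, signals known to induce or restrain TSLP, JAK-STAT signalling, and outputs of type 2 inflammation. In AK vs. NS, 53 passed the filter, of which 5 were called higher and 2 lower (13.2%, against 4.64% of all genes tested, 2.26% higher and 2.38% lower), and their median log2 fold change was -0.15 against -0.04. Tslp and its receptor chains are not in these counts. The lists were chosen with earlier results of these data known. The shares called in them, here and in the cSCC comparisons, are thus a description and not independent of the data. In 1 fit of all 20 samples, 0 pathway genes were called higher and 0 lower in AK vs. NS, against 5 and 4 of all genes.

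Among relatives of the receptor, 1 of 8 tested was called higher in AK, against 2.26% of all genes. Il13ra1, a chain of the receptor for IL-4 and IL-13, rose from 216 to 459 CPM in NS to 476 to 844 CPM in AK. These ranges did not overlap, a position shared by 0.394% of genes. Its log2 fold change was 0.70 ± 0.16 (SE, edgeR adjusted p 0.0238, and 0.0518 without NS replicate 4). Of the alarmins, 1 of 6 was called higher, against the same 2.26% of all genes. This was Il33, which like TSLP is released by damaged epithelium. It was at 56.0 to 203 CPM in NS and 192 to 307 CPM in AK (log2 fold change 1.11 ± 0.24, SE, edgeR adjusted p 0.019), a call kept without any 1 sample. Il25 was at 0 in all AK and cSCC.

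Of the signals upstream of TSLP, 1 of 19 was called higher and 1 lower in AK, against 2.26% and 2.38% of all genes. Tlr3, a sensor of double-stranded RNA, was at 2.87 to 12.5 CPM in NS and 10.5 to 28.2 CPM in AK (log2 fold change 1.09 ± 0.31, SE, edgeR adjusted p 0.0476), a call lost without any 1 sample but NS replicates 6 and 9 and AK replicates 10 and 17. F2rl1, the protease-activated receptor through which kallikreins act on TSLP, fell from 5.53 to 14.8 CPM in NS to 1.87 to 7.86 CPM in AK (log2 fold change -1.37 ± 0.30, SE, edgeR adjusted p 0.02). Its call was kept without any 1 sample.

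In the JAK-STAT list, 1 of 11 was called higher and 1 lower in AK, against 2.26% and 2.38% of all genes. Jak2, a kinase of the TSLP receptor, was at 38.7 to 76.1 CPM in NS and 65.0 to 127 CPM in AK (log2 fold change 0.77 ± 0.17, SE, edgeR adjusted p 0.0215). Pim1, a kinase gene induced through STAT5, fell from a median of 38.3 CPM to 19.6 CPM (log2 fold change -1.04 ± 0.27, SE, edgeR adjusted p 0.0332), and was not called without any 1 of NS replicates 1, 2, 4 and 5 and AK replicates 11, 13, 15, 16 and 17. Stat5a gave a log2 fold change of -0.83 with an adjusted p of 0.168.

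Of the type 2 outputs, 9 of 18 passed the filter and 1 was called higher, against 2.26% of all genes. Ccl11, the eosinophil chemokine eotaxin, was at 21.4 to 214 CPM in NS and 67.1 to 503 CPM in AK (log2 fold change 1.60 ± 0.41, SE, edgeR adjusted p 0.0326), and was not called without any 1 of NS replicates 1, 2, 4 and 5 and AK replicates 12, 13 and 16. The cytokines themselves were near 0: Il5 and Il31 had no count in any sample, Il13 had none in AK or cSCC, and Il4 averaged 1.34 CPM in NS and 1.91 CPM in AK. In the markers of cells that respond to TSLP, 0 of 5 tested for group 2 innate lymphoid cells, 0 of 6 for dendritic and Langerhans cells and 0 of 10 for mast cells, basophils and eosinophils were called by edgeR in AK vs. NS, where 4.64% of all genes were called, with median log2 fold changes of 0.29, -0.20 and 0.70. No B cell marker passed the filter there, and 0 of 8 keratinocyte, 0 of 6 stromal and endothelial, 0 of 4 heart muscle and 0 of 2 lung markers were called.

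**Figure D5:**
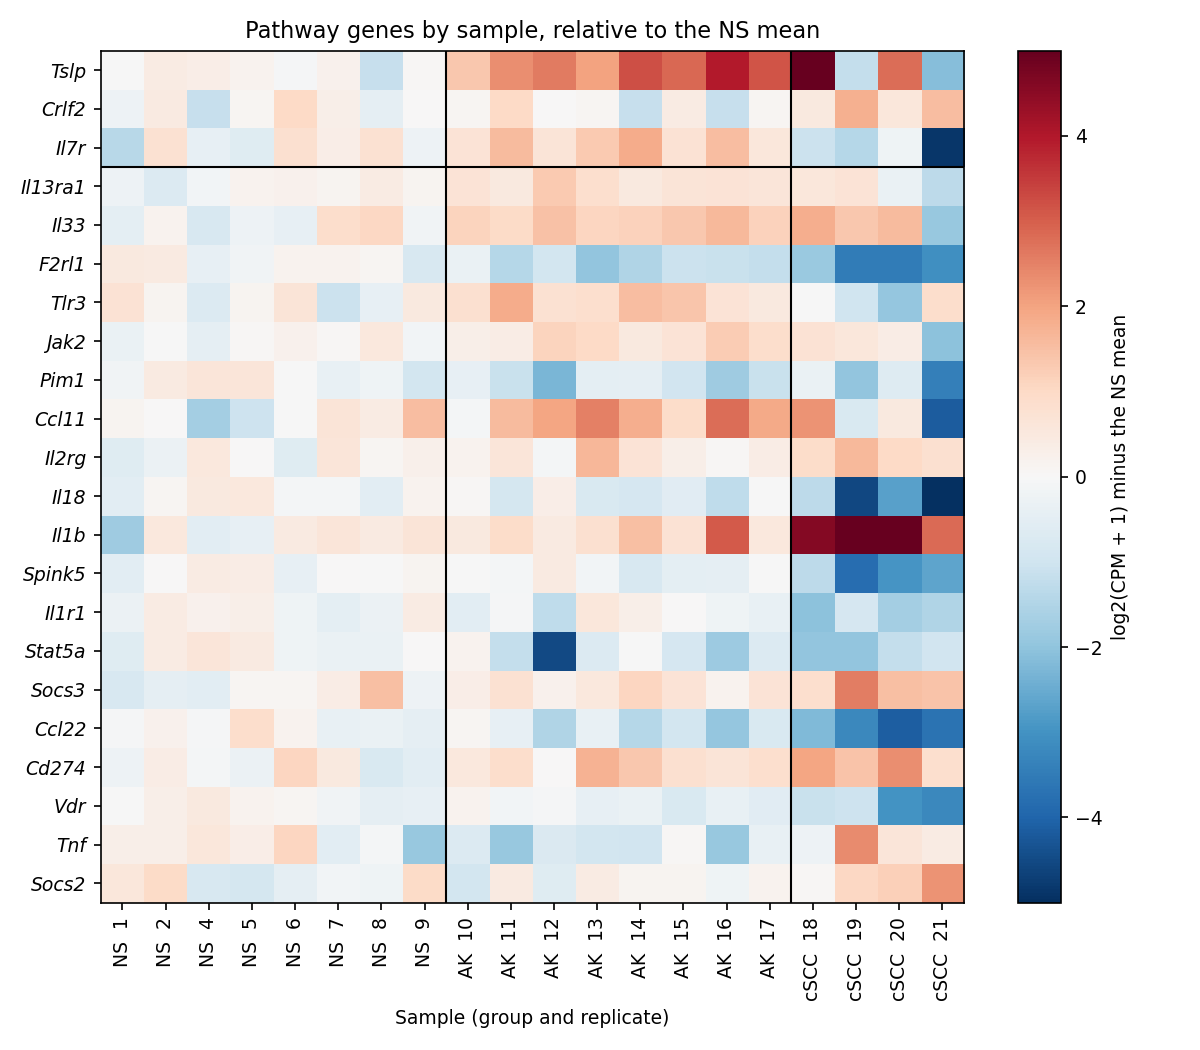
Tslp, Crlf2 and Il7r (top 3 lines) and the 19 called pathway genes named in the text, in each of the 20 samples, as log2(CPM + 1) minus the NS mean, on a color scale that stops at 5 in both directions. In AK, Tslp, Il33 and Ccl11 are red in most samples, and in cSCC Il1b is red while Il18, Spink5, Ccl22 and F2rl1 are blue.

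In cSCC vs. NS, 52 of the 69 pathway genes were tested, 4 were called higher and 10 lower (26.9%, against 19.3% of all genes), with a median log2 fold change of -0.03 against 0.14. Of all genes, 7.65% were called lower. Most of the lower genes were among the signals upstream of TSLP, where 1 of 20 was called higher and 7 lower. Il1b, an inflammatory cytokine that induces TSLP in keratinocytes, was at 5.10 to 31.3 CPM in NS and at 149 to 1453 CPM in cSCC (log2 fold change 5.24 ± 0.55, SE, edgeR adjusted p 0.000297). Il1r1, the receptor chain for that cytokine, fell, with a log2 fold change of -1.51 (edgeR adjusted p 0.00745), as did F2rl1 (-4.19, adjusted p 0.00321), the vitamin D receptor Vdr (-1.79, adjusted p 0.0116) and Spink5, the kallikrein inhibitor lost in Netherton syndrome (-2.38, adjusted p 0.0057). For all 4, every cSCC was below every NS, a position shared by 5.73% of genes.

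Beyond these, Il18, an alarmin of keratinocytes, fell in cSCC vs. NS with a log2 fold change of -2.76 (edgeR adjusted p 0.0169), as did Stat5a (-1.55, adjusted p 0.0137) and the chemokine Ccl22, a ligand of Ccr4 that TSLP-conditioned dendritic cells make (-4.13, adjusted p 0.00167). Ccl22 was at 11.7 to 30.6 CPM in NS and at 2.78, 0.879 and 0.331 CPM in cSCC replicates 18, 19 and 21, and its count of 0 in cSCC replicate 20 allows up to 3.41 CPM. Socs3, a feedback inhibitor of cytokine receptors, rose by 1.71 ± 0.47 on the log2 scale (SE, edgeR adjusted p 0.0216, lost without cSCC replicate 19) and Cd274, which encodes PD-L1, by 1.77 ± 0.39 (SE, adjusted p 0.00836). Without the libraries that held lung and heart genes, 6 pathway genes were called higher and 8 lower, and the genes given here for cSCC vs. NS kept their calls, with log2 fold changes of 5.47 for Il1b, 1.73 for Cd274, -3.53 for F2rl1, -1.38 for Il1r1, -1.10 for Vdr, -2.10 for Spink5, -2.23 for Il18, -2.20 for Stat5a and -3.28 for Ccl22, and adjusted p-values of at most 0.0465, that of Socs3. With limma's voom, Il1r1 (adjusted p 0.0824) and Stat5a (0.103) were not called.

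Markers of other cells are given for cSCC vs. NS, where 7.65% of all genes were called lower and 11.7% higher. Of 6 stromal and endothelial markers, Cdh5 and Pecam1 were called higher. Areg was called higher of 4 markers tested for group 2 innate lymphoid cells, and 0 of 9 for mast cells, basophils and eosinophils were called. Without the libraries that held lung and heart genes, Areg kept its call (3.08, edgeR adjusted p 0.0112), and Cdh5 (0.401) and Pecam1 (0.202) did not. Of 8 keratinocyte markers, Krt1 and Krt10, keratins of differentiating keratinocytes, were called lower (-3.46 and -4.04, edgeR adjusted p 0.0244 and 0.0092), with every cSCC below every NS, and Sfn was called higher (1.54, adjusted p 0.0185). Of 7 dendritic and Langerhans cell markers, Cd207, the langerin gene, was called lower (-4.96, adjusted p 0.00321) and Cd74 higher (1.49, adjusted p 0.02). When those libraries were left out, Krt10 (-3.29, adjusted p 0.0463), Cd207 (-3.92, adjusted p 0.00504) and Sfn (2.03, adjusted p 0.00841) kept their calls, while Krt1 (-2.68, adjusted p 0.0903) and Cd74 (1.29, adjusted p 0.106) did not. In cSCC vs. AK, Krt1, Krt10 and the desmosome gene Dsp were called lower (-3.02, -3.12 and -0.96), as was Cd207 (-4.21), and Sfn and Cd74 higher (1.95 and 1.81). Of all genes, 8.34% were called lower there and 16% higher. Without the lung and heart libraries, Cd207 (-3.18, edgeR adjusted p 0.0332) and Sfn (2.41, 0.00217) kept their calls. Those of Krt1 (-2.24, 0.104), Krt10 (-2.37, 0.127), Dsp (-0.66, 0.142) and Cd74 (1.59, 0.0648) were lost, and Krt5 was called higher (1.28, 0.0086). The part of these cells in the pathway results was not tested.

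In cSCC vs. AK, 4 of 53 were called higher and 7 lower (20.8%, against 24.4% of all genes), with a median log2 fold change of -0.35 against 0.17. Il1b (4.03), Tnf (2.70), Socs2 (1.57) and Socs3 (1.32) were higher by these log2 fold changes, with edgeR adjusted p-values of 0.00187, 0.0222, 0.0137 and 0.0128. The calls of Tnf and Socs3 were lost without cSCC replicate 19 and that of Socs2 without cSCC replicate 21. The log2 fold changes of the 7 genes that fell were -2.02 for Klk7 (adjusted p 0.037), a kallikrein of the outer epidermis that is named to complete the count, -2.30 for Il18 (0.0278), -3.2 for Ccl22 (0.00796), -2.76 for F2rl1 (0.0265), -1.30 for Il1r1 (0.0227), -1.41 for Vdr (0.0205) and -2.14 for Spink5 (0.00552). Without the libraries that held lung and heart genes, 5 pathway genes were called higher and 2 lower, and of the 7 only Spink5 was still called (-1.88, adjusted p 0.0335). The others gave -1.42 for Klk7 (0.116), -1.76 for Il18 (0.0895), -2.39 for Ccl22 (0.0582), -2.12 for F2rl1 (0.192), -1.20 for Il1r1 (0.114) and -0.73 for Vdr (0.094). With limma's voom, Ccl22 (adjusted p 0.0749), F2rl1 (0.105), Il1r1 (0.191) and Vdr (0.0736) were not called. Il1b (4.29, 0.0013), Tnf (3.16, 0.0369) and Socs3 (adjusted p 0.0252) kept their calls without the lung and heart libraries, and Socs2 did not (0.74, 0.284). Il18 was not called without cSCC replicate 19 or 20, nor F2rl1 without cSCC replicate 19, 20 or 21. The keratinocyte markers of the replicates labelled 20 and 21 were the lowest of the series, as given above, and their part in these results was not tested.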

How the data were processed

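Gene expression was measured by RNA-seq in 20 skin tissues. The authors deposited raw counts per gene symbol, not normalized. Per the labels, the processing notes name Trimmomatic 0.36, HISAT2 2.0.5 and featureCounts 1.5.2 with the builds hg19 and mm9, whereas the paper's methods name GRCm38 and StringTie, so the counter, build and strand setting stay unsettled. An item that is withheld is not reported here and was left out of the lists. Coordinates and exon lengths are those of GENCODE M21, not of the count table.

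Groups came from the sample labels. The members and lists were chosen with earlier results of these data known. CPM used TMM factors over all 20 samples. Each comparison used only its own samples, edgeR 4.0.16 (R 4.3.3), filterByExpr and the quasi-likelihood test with Benjamini-Hochberg adjustment. Standard errors are the log2 fold change divided by the square root of F. With all samples of a comparison Crlf2 did not pass filterByExpr, so its fit was run without the filter. Exact permutation tests used scipy 1.17.1, were added after the data were seen and are unadjusted. A count of 3 served as the floor. The test was checked on simulated counts with 200 changed genes. Named genes were the 3 members, Il7 and Il2rg, the 4 called genes of lowest adjusted p in each pathway list and comparison, the 5 genes most like each member, and marker lists that bear on a member.

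Alternatives were DESeq2 1.42.0, limma 3.58.1 (voom, weighting samples by quality), upper quartile factors, library size as the only scaling, other filters, all 20 samples in 1 fit, unadjusted p-values, and leaving out each sample or both cSCC with lung and heart genes. For marker lists, leaving out these libraries was added after the data were seen.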

Additional observations from a re-analysis of the deposited data

Results flagged for a closer look

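Of the levels of the 3 genes in each group, 2 samples stood farther from the others of their group than Dixon's 95% limit. Chance alone gives such a distance in about 1 of 20 groups only if the values are normally distributed. The limit was applied to CPM and not to log2 values, so this rate may not hold here. Tslp was at 5.48 CPM in NS replicate 8, the lowest of the NS, where the others were at 12.96 CPM or more. Tslp was at 1202 CPM in cSCC replicate 18, the highest of the cSCC, where the others were at 100 CPM or less. Without NS replicate 8 the log2 fold change of Tslp for cSCC vs. NS was 4.38, and without cSCC replicate 18 it was 1.30.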

How the results depend on the processing

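No paired analysis was possible because the groups share no replicate number and no label ties a tissue to its mouse. For the 3 genes no called direction turned under any alternative run. For AK vs. NS, Il7r kept its direction and lost its call with library size alone (log2 fold change 0.95), upper quartile factors (0.97), no low-count filter (1.03) and all 20 samples in 1 fit (1.04, adjusted p 0.274), and ranged from 0.90 to 1.15 without 1 sample. For cSCC vs. NS, the Tslp call was lost with voom (1.5) and in the exact permutation test (1.46), and its log2 fold change ranged from 1.30 to 4.97 without 1 sample. The exact permutation test passed where edgeR's adjusted test did not for Crlf2 in cSCC vs. NS (1.09) and cSCC vs. AK (1.16) and for Il7r in cSCC vs. NS (-1.89). The cause was not tested.

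Pathway genes called higher in AK vs. NS numbered 5, against 0 in 1 fit of all 20 samples and 9 without adjustment, and 2 to 6 without 1 sample. Those called lower numbered 2, against 4 with DESeq2, 4 with voom, 0 in 1 fit of all 20 samples and 7 without adjustment, and 1 to 4 without 1 sample. The count called higher was 2 without NS replicate 4 and 3 without NS replicates 1, 2 or 5 or AK replicates 12, 13 or 16. In cSCC vs. NS, 4 were called higher, against 2 with library size alone and 7 without adjustment, and 2 to 6 without 1 sample, the 2 being without cSCC replicate 19. In cSCC vs. AK, 4 were called higher, against 7 with DESeq2, 2 with library size alone and 10 without adjustment. There 7 were called lower, against 11 in 1 fit of all 20 samples, 15 without adjustment and 2 without both libraries that held lung and heart genes, and 4 to 10 without 1 sample, the 4 being without cSCC replicate 20.

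Over all genes, 264 were called higher and 278 lower in AK vs. NS, against 5 and 4 in 1 fit of all 20 samples, 433 and 616 with DESeq2, and 521 and 522 with voom. With voom, 768 and 540 were called in cSCC vs. NS (1414 and 926 in edgeR) and 726 and 544 in cSCC vs. AK (1931 and 1004 in edgeR). Library size alone lowered the share called higher from 48.7% to 26.8% of calls in AK vs. NS, from 60.4% to 31.9% in cSCC vs. NS and from 65.8% to 43% in cSCC vs. AK, and moved the median log2 fold change of all genes from 0.14 to -0.17 in cSCC vs. NS and from 0.17 to -0.09 in cSCC vs. AK. In the smallest library, 3 counts are 3.41 CPM, above most Crlf2 values, so at this depth Crlf2 could not be told from 0 in the shallow libraries.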
